A study of Homo sapiens with 12 samples.

Results

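The genes described here are a set of 9 that glandular epithelium uses to make and cover itself with mucus and secretion: the membrane mucins MUC1, MUC4, MUC15, MUC16, MUC20 and MUC21, the protein disulfide isomerase AGR2, the transcription factor ELF3 and the secreted vitamin B12 carrier TCN1. All 9 were found among the 18417 genes tested. Each gene is represented by the probe set that names it alone in the array's annotation, and where a gene had several such probe sets the one chosen was selected by the highest mean over the 12 arrays. That choice arose for MUC21 alone, whose 3 probe sets averaged 7.77, 7.47 and 7.42 on the log2 scale, and the first of these was used. The mean over all arrays does not depend on which group an array belongs to, but the 9 genes were put together with earlier results of these data known, so their tests describe these genes and do not support a statement about mucins in general.

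MCF10A is an established line of non-tumorigenic human breast epithelial cells. The cells used here carried, by stable transfection, a full-length human HER2 receptor fused to FKBP and an HA tag, and every group below, controls included, carried it. The 4 groups, each of 3 dishes and 3 arrays, were cells given AP1510, cells given TGF-alpha, cells given heregulin and untreated cells. AP1510 is a bivalent compound that binds FKBP and so joins 2 chimeric receptors, TGF-alpha binds EGFR, and heregulin binds HER3 and HER4. Treated cells were harvested after 48 hours, following 24 hours without serum and EGF, while cholera toxin, hydrocortisone and insulin stayed in the medium of all groups. The labels state no dose, no vehicle and no harvest time for the untreated dishes. Nothing says that the dishes came from separate cultures, so each p-value reflects only how far these dishes differ, which may be technical. A single stable line stands for the chimera, and the labels do not say whether it was cloned.

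Membrane mucins are long, heavily O-glycosylated proteins that project from the apical surface, lubricate it, keep microbes and other cells away and, through their cytoplasmic tails, take part in signalling. MUC1 and MUC16 are the proteins detected by the tumour marker tests CA15-3 and CA125, MUC4 can bind the HER2 protein, and MUC20 can associate with the receptor MET. AGR2 resides in the endoplasmic reticulum and is needed for the folding of mucins in mouse intestine, ELF3 is an ETS-family factor of differentiated epithelium, and TCN1 encodes haptocorrin, which shields vitamin B12 in secretions.

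The values are log2 intensities after RMA, so a difference of 1 is a change of 2-fold, and levels of different genes cannot be set against each other. Array medians lay between 5.33 and 5.44. The epithelial markers CDH1, EPCAM, KRT8 and KRT18 averaged 10.7 to 10.9 on AP1510 arrays, 11.3 to 11.4 on TGF-alpha arrays, 10.4 to 10.6 on heregulin arrays and 10.7 to 10.8 on untreated arrays, and 0 of these 4 lay below the array median. The basal markers KRT5, KRT14, ITGA6 and ITGB4, the measured ones of 6 listed, averaged 9.81 to 9.94, 10.5, 9.82 to 9.89 and 9.51 to 9.60 on the same groups. Of the leukocyte markers measured, 4 of 5 lay below the array median on all 12 arrays, with PTPRC at 2.83 to 3.12, and CD68 was the exception. Of 5 endothelial markers 2 did so, and the exceptions were PECAM1 at 8.10 to 8.72, KDR at 5.07 to 6.44 and CDH5 at 4.57 to 5.84. Of 6 fibroblast markers 2 did so, with LUM at 2.61 to 2.96, COL1A1 at 6.56 to 7.08 and DCN at 6.26 to 8.96. The fibroblast list averaged 5.26 to 5.37 on AP1510 arrays, 5.13 to 5.16 on TGF-alpha arrays, 5.58 to 5.75 on heregulin arrays and 5.23 to 5.37 on untreated arrays, and the part of any of these lists in the changes below was not tested. In such bulk samples fewer cells that express a gene and less RNA per cell cannot be told apart.

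Replicate numbers follow the order of the samples within each group and are not taken from the labels. Replicate 1 of AP1510 stood apart from the other AP1510 arrays, most of all in 3 of the 9 genes. It was higher than the mean of replicates 2 and 3 by 0.84 for MUC21, and its differences from that mean were -0.84 for AGR2, -0.81 for TCN1 and -0.36 for MUC16. Replicates 2 and 3 differed from each other by at most 0.23 in size among the 9 genes. For MUC21, AGR2 and TCN1 the array lay on the side toward which both TGF-alpha and heregulin moved the gene. The same held for ELF3, where its difference from the mean of replicates 2 and 3 was -0.18. For these genes the change with AP1510 against untreated is therefore also given without that array.

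**Figure D1:**
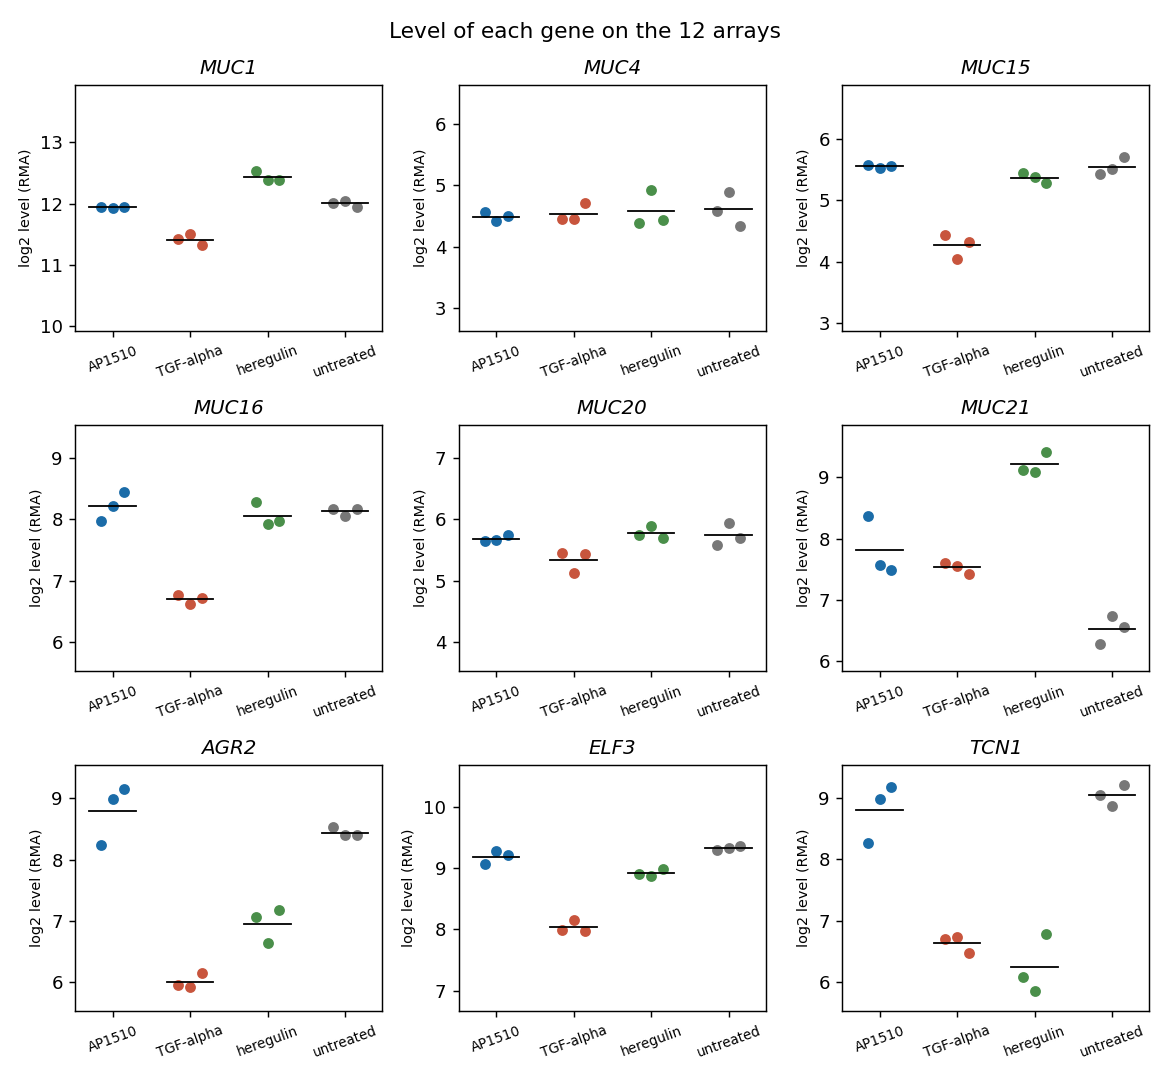
Log2 level (vertical axis, RMA, a span of 4 units in every panel) of each of the 9 genes on the 12 arrays, with groups along the horizontal axis, 1 point per array and a black line at the group mean. MUC15 and MUC16 are low on the TGF-alpha arrays alone, MUC21 is lowest on untreated and highest on heregulin arrays, and TCN1 is low on TGF-alpha and heregulin arrays.

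Among the 4 groups 8 of the 9 genes differed by a moderated F test, against 28.5% of all genes tested, and MUC4 did not. With AP1510, 1 gene rose, MUC21, where 0.771% of all genes rose, and 0 of 9 fell by limma, also 0 at an unadjusted p under 0.05, where 0.700% of all genes fell. With TGF-alpha, 7 genes fell, where 13.4% of all genes fell, and MUC21 rose, where 12.5% of all genes rose. With heregulin, AGR2, ELF3 and TCN1 fell, where 5.06% of all genes fell, and MUC1 and MUC21 rose, where 3.45% of all genes rose. The median log2 change of the 9 genes was -0.06 with AP1510, -1.28 with TGF-alpha and -0.07 with heregulin, against -0.01, -0.01 and 0.01 over all genes. The 3 comparisons share the untreated arrays.

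**Figure D2:**
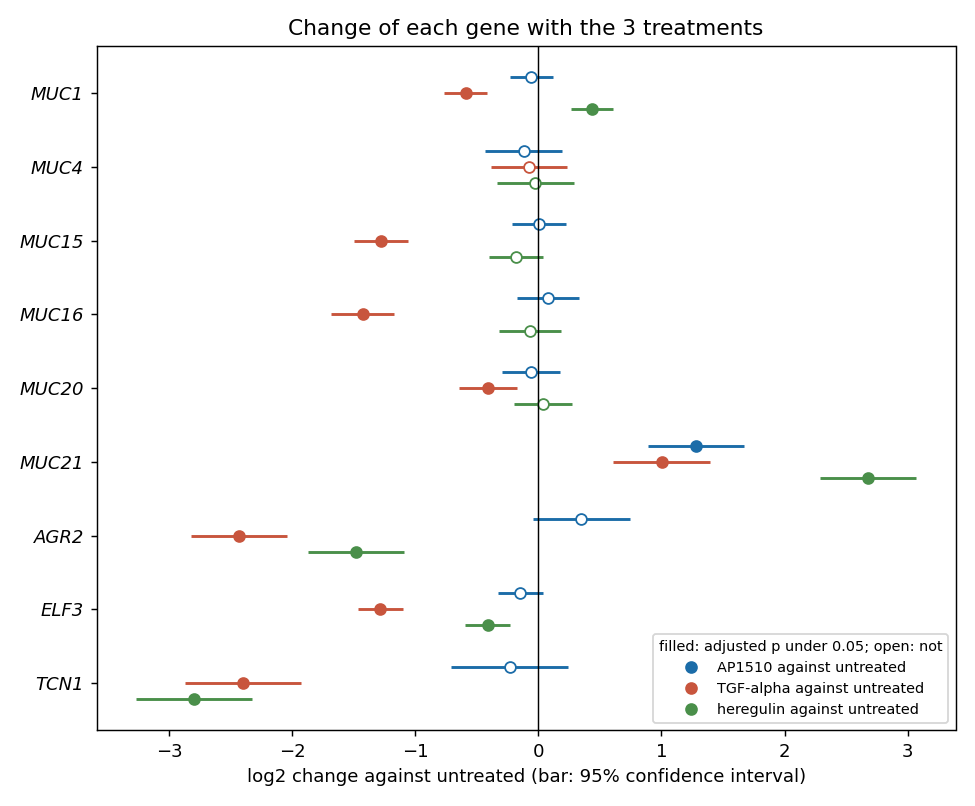
Log2 change against untreated (horizontal axis) of the 9 genes with AP1510, TGF-alpha and heregulin; points are the fitted changes, bars their 95% confidence intervals, and filled points passed an adjusted p of 0.05. With AP1510 the filled point is MUC21 alone, while with TGF-alpha MUC4 alone is open.

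MUC1, the mucin found on most glandular surfaces, moved in opposite directions with the 2 natural ligands. Its log2 level was 11.95, 11.93 and 11.95 on AP1510 arrays, 11.42, 11.50 and 11.33 on TGF-alpha arrays, 12.53, 12.39 and 12.39 on heregulin arrays and 12.01, 12.05 and 11.95 on untreated arrays. All heregulin arrays lay above and all TGF-alpha arrays below every untreated array, while AP1510 and untreated arrays overlapped. Over all genes, arrays lay apart in either direction for 17.3% with AP1510, 40.2% with TGF-alpha and 23.8% with heregulin against untreated. Between treatments it was 34.3% in heregulin against TGF-alpha, 36.4% in TGF-alpha against AP1510 and 22.7% in heregulin against AP1510. These shares hold for the genes below as well. MUC1 fell 1.504-fold with TGF-alpha (log2 change -0.59 ± 0.08, standard error, n = 3 arrays per group, adjusted p = 3.9e-05). It rose 1.35-fold with heregulin (log2 change 0.44 ± 0.08, adjusted p = 0.0026). Heregulin against TGF-alpha was a difference of 2.03-fold (adjusted p = 1.6e-07), so the order heregulin, then AP1510 and untreated together, then TGF-alpha was larger than the spread. Between AP1510 and untreated the log2 change was -0.06, with a 95% confidence interval from -0.23 to 0.12 (adjusted p = 0.89).

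The RefSeq table held promoters for 6 of the 9 genes. That of MUC1 is shown because MUC1 differs from the other genes in this opposition. The sequence is RefSeq's for GRCh38.p14, on the minus strand at chr1:155192860-155193159 (the more downstream of 2 windows the table lists), from 250 bases before to 50 after a transcription start. Capitals mark GGAA (the core of ETS-family motifs), TATAAA and TGTTCT (part of the glucocorticoid receptor's motif), on either strand.
MUC1: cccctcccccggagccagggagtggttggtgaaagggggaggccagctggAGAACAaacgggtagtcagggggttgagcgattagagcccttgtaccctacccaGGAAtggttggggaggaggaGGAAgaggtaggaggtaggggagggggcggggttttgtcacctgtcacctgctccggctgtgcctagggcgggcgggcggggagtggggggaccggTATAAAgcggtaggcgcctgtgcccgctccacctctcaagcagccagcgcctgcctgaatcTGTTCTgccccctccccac
The letters TATAAA begin 30 bases before the start and occur in 11.5% of the 35116 promoters of this length in the same table. TGTTCT occurs in 14.8% of them and GGAA in 95.5%.

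MUC16 and MUC15 were lower with TGF-alpha and with neither of the other treatments past the threshold. MUC16, a very large mucin of wet epithelial surfaces, stood at 7.97, 8.21 and 8.45 with AP1510, 6.77, 6.62 and 6.72 with TGF-alpha, 8.28, 7.93 and 7.97 with heregulin and 8.17, 8.06 and 8.17 in untreated cells. The TGF-alpha arrays were all more than 1 unit below every other array, and the other groups overlapped. MUC16 fell 2.69-fold with TGF-alpha (log2 change -1.43 ± 0.12, adjusted p = 1.7e-07), and its log2 changes with AP1510 and heregulin were 0.08 and -0.07 (adjusted p = 0.9 and 0.81). The difference of heregulin from TGF-alpha was itself tested and came to 2.56-fold (adjusted p = 4.3e-07), and that of TGF-alpha from AP1510 to a log2 change of -1.505 (adjusted p = 2.2e-07).

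MUC15, a smaller membrane mucin, gave 5.57, 5.52 and 5.56 with AP1510, 4.43, 4.05 and 4.33 with TGF-alpha, 5.44, 5.37 and 5.28 with heregulin and 5.43, 5.50 and 5.70 in untreated cells. Again the TGF-alpha arrays were the low ones, and heregulin and untreated arrays overlapped. The TGF-alpha values lay below every array median, in a range where RMA values carry no detection call. MUC15 fell 2.42-fold with TGF-alpha (log2 change -1.28 ± 0.10, adjusted p = 1.3e-07). Its log2 change with heregulin was -0.18, with an interval from -0.40 to 0.04 (adjusted p = 0.36).

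MUC4 and MUC20, which lie next to each other on chromosome 3, showed the smallest changes of the 9 with TGF-alpha. MUC20 stood at 5.64, 5.66 and 5.74 with AP1510, 5.45, 5.12 and 5.43 with TGF-alpha, 5.75, 5.88 and 5.70 with heregulin and 5.59, 5.95 and 5.69 in untreated cells. It fell 1.33-fold with TGF-alpha (log2 change -0.41 ± 0.11, adjusted p = 0.011), but leaving out replicate 2 of the untreated arrays (adjusted p = 0.065) or of the TGF-alpha arrays (adjusted p = 0.07) ended the call. That TGF-alpha value, 5.12, lay below every array median, in a range where RMA values carry no detection call. MUC4 ranged from 4.41 to 4.56 with AP1510, from 4.45 to 4.71 with TGF-alpha, from 4.39 to 4.92 with heregulin and from 4.35 to 4.90 in untreated cells. The 4 groups overlapped, and the log2 changes against untreated were -0.12, -0.08 and -0.02, with intervals that together ran from -0.43 to 0.29 (adjusted p = 0.86, 0.79 and 0.95). The MUC4 values lay below every array median, in a range where RMA values carry no detection call.

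MUC21, a mucin also called epiglycanin, was the member that rose in every treatment. Its levels were 8.37, 7.56 and 7.49 with AP1510, 7.61, 7.55 and 7.43 with TGF-alpha, 9.12, 9.08 and 9.42 with heregulin and 6.28, 6.75 and 6.56 in untreated cells. Every treated array lay above every untreated array, and every heregulin array above all others. MUC21 rose 6.40-fold with heregulin (log2 change 2.68 ± 0.18, adjusted p = 1.6e-07), which placed it at rank 12 of all genes by size of rise. It rose 2.43-fold with AP1510 (log2 change 1.28 ± 0.18, adjusted p = 0.0024), at rank 3, and 2.003-fold with TGF-alpha (log2 change 1.002 ± 0.18, adjusted p = 0.00058), at rank 399.

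The rise of MUC21 with AP1510 held without the array that stood apart, at a log2 change of 0.999 (adjusted p = 0.0023). TGF-alpha against AP1510 gave a log2 change of -0.28 with an interval from -0.67 to 0.11 (adjusted p = 0.37), and 0.00 without AP1510 replicate 1 (adjusted p = 0.99), so these treatments were not separated. Heregulin exceeded AP1510 by 2.64-fold (adjusted p = 0.00015) and TGF-alpha by 3.20-fold (adjusted p = 4.7e-06). The other probe sets of MUC21 list the same transcripts and gave log2 changes of 1.21 and 1.22 with AP1510, 0.91 and 0.93 with TGF-alpha and 2.62 and 2.64 with heregulin. Adjusted over all 33297 probe sets, their AP1510 changes missed the threshold (adjusted p = 0.059 and 0.06), while that of the probe set used did not (adjusted p = 0.037).

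AGR2 and TCN1, which both act in or leave through the secretory route, fell with both natural ligands. AGR2 stood at 8.23, 8.99 and 9.14 with AP1510, 5.95, 5.93 and 6.15 with TGF-alpha, 7.06, 6.64 and 7.17 with heregulin and 8.53, 8.40 and 8.40 in untreated cells. The TGF-alpha arrays were lowest, the heregulin arrays came next, and neither group overlapped with any other. AGR2 fell 5.40-fold with TGF-alpha (log2 change -2.43 ± 0.18, adjusted p = 6.6e-08), the 20th largest fall of all genes. It fell 2.79-fold with heregulin (log2 change -1.48 ± 0.18, adjusted p = 6.1e-05), and the 2 ligands differed by 1.93-fold (heregulin higher, adjusted p = 0.0012). With AP1510 the log2 change was 0.35 with an interval from -0.04 to 0.74 (adjusted p = 0.52), and 0.63 without AP1510 replicate 1 (adjusted p = 0.061).

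TCN1 stood at 8.26, 8.98 and 9.16 with AP1510, 6.69, 6.74 and 6.47 with TGF-alpha, 6.08, 5.85 and 6.78 with heregulin and 9.05, 8.86 and 9.20 in untreated cells. AP1510 and untreated arrays were high and overlapped, TGF-alpha and heregulin arrays were low and overlapped. It fell 6.96-fold with heregulin (log2 change -2.80 ± 0.22, adjusted p = 7.2e-07), the largest fall of any gene in that comparison. It fell 5.28-fold with TGF-alpha (log2 change -2.40 ± 0.22, adjusted p = 5.2e-07), at rank 21. Heregulin against TGF-alpha gave a log2 change of -0.40 with an interval from -0.87 to 0.07 (adjusted p = 0.25), and without heregulin replicate 3, the highest heregulin array, -0.67 (adjusted p = 0.028). With AP1510 the log2 change was -0.23 (adjusted p = 0.8), and 0.04 without AP1510 replicate 1 (adjusted p = 0.98).

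ELF3 stood at 9.06, 9.27 and 9.21 with AP1510, 7.998, 8.15 and 7.98 with TGF-alpha, 8.90, 8.87 and 8.98 with heregulin and 9.29, 9.33 and 9.36 in untreated cells. The groups did not overlap and ran from untreated at the top through AP1510 and heregulin to TGF-alpha. ELF3 fell 2.44-fold with TGF-alpha (log2 change -1.28 ± 0.09, adjusted p = 1.9e-08) and 1.33-fold with heregulin (log2 change -0.41 ± 0.09, adjusted p = 0.0057). Its log2 change with AP1510 was -0.15 (adjusted p = 0.59) although the arrays did not overlap, which was the case for 17.3% of all genes in that comparison. Without AP1510 replicate 1 that change was -0.09 (adjusted p = 0.88). Heregulin against AP1510 missed the threshold (log2 change -0.26, adjusted p = 0.079) and passed it without AP1510 replicate 1 (log2 change -0.32, adjusted p = 0.046).

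The promoters of AGR2, TCN1 and ELF3 are shown because these genes are the members that fell with both natural ligands. They are RefSeq's for GRCh38.p14 over the same window, at chr7:16804950-16805249 on the minus strand, chr11:59866438-59866737 on the minus strand and chr1:202010337-202010636 on the plus strand, with capitals as for MUC1.
AGR2: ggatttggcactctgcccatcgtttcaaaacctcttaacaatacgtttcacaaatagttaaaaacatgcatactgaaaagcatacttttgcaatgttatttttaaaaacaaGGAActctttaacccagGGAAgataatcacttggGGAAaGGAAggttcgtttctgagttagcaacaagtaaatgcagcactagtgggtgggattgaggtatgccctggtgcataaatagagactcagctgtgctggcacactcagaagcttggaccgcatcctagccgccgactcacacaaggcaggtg
TCN1: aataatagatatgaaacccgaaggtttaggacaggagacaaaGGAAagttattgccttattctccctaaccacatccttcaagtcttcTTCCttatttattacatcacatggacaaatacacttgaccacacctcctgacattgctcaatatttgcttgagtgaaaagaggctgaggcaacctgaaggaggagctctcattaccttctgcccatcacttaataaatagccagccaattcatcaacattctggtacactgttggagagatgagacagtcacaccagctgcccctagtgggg
ELF3: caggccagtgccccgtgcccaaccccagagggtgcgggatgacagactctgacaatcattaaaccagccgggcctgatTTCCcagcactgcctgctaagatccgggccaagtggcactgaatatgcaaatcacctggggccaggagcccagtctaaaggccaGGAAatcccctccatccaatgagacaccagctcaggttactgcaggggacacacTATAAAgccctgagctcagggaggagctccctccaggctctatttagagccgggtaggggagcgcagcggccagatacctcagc
Guanine and cytosine made up 43.7% of the AGR2 window and 43.0% of the TCN1 window, against 59.0% for ELF3, 65.7% for MUC1 and a median of 58.7% over all promoters in the table. GGAA was found 4 times in AGR2 and 2 times each in TCN1, ELF3 and MUC1, counting both strands. The AP-1 motif TGANTCA (7.71% of all promoters), the CRE motif TGACGTCA (1.85%), the longer ETS letters CGGAA (34.9%, which contain GGAA) and the STAT motif TTCNNNGAA (7.66%) were searched on both strands and were in none of these 4 windows, which says only that these letters are not there. In the promoters not printed, 1 of 2 windows of MUC16 held TGANTCA at position -136 and CGGAA at -176, counted from the start site, and the window of MUC4 held TTCNNNGAA at -11. Each such match is a description of letters.

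The treatments were also set against each other directly. In TGF-alpha against AP1510, 7 of 9 genes were lower (10.4% of all genes were) and 0 were higher by limma, also 0 at an unadjusted p under 0.05 (11.2% of all genes were higher). The 7 were MUC1, MUC15, MUC16, MUC20, AGR2, ELF3 and TCN1, with AGR2 lower by the most, at 6.88-fold. The call of MUC20 (adjusted p = 0.032) was lost without AP1510 replicate 1, 2 or 3 (adjusted p = 0.051, 0.069 and 0.11), without TGF-alpha replicate 2 (adjusted p = 0.18) and with all probe sets tested (adjusted p = 0.071). In heregulin against AP1510, MUC1 and MUC21 were higher (3.27% of all genes were) and AGR2 and TCN1 were lower (3.95%), AGR2 by 3.56-fold and TCN1 by 5.92-fold. In heregulin against TGF-alpha, 7 genes were higher (9.88% of all genes were) and 0 were lower by limma, also 0 at an unadjusted p under 0.05 (11.8% of all genes were lower). MUC4 and TCN1 were the pair that did not pass there, and MUC20 did not without TGF-alpha replicate 2 (adjusted p = 0.051).

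The AP1510 arrays can be followed gene by gene. For AGR2, replicates 2 and 3 lay above all untreated arrays and replicate 1 below them. For TCN1, replicate 1 lay below all untreated arrays while replicates 2 and 3 lay among them. For MUC21 all 3 lay above, replicate 1 by the most. MUC1 showed no such spread, with an SD of 0.01 over the AP1510 arrays against 0.05 over the untreated arrays.

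**Figure D3:**
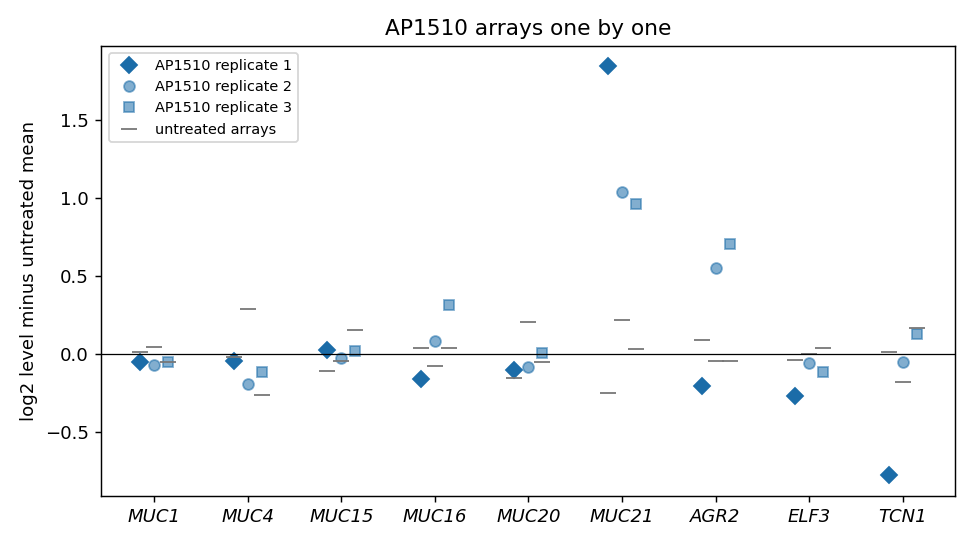
Log2 level of each AP1510 array minus the untreated mean (vertical axis) for the 9 genes, with replicate 1 as dark diamonds and untreated arrays as grey dashes. Replicate 1 is highest for MUC21, at 8.37 against 7.56 and 7.49, and lowest for AGR2, at 8.23 against 8.99 and 9.14, and for TCN1, at 8.26 against 8.98 and 9.16.

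Genes with the most similar course were sought for the 8 members that differed among groups, by the root mean square difference over the 12 arrays after each gene was set to its own untreated mean. This is a description with no test. Nearest to MUC1 was STAT3, a transcription factor, at 0.09 log2 units, with log2 changes of -0.17 with AP1510, -0.53 with TGF-alpha and 0.38 with heregulin, followed by PHYKPL and GM2A at 0.10 and 0.11. The median gene lay 0.40 from MUC1. ELF3 ran closest to PTPRU, a receptor tyrosine phosphatase, at 0.07, then MFSD1 and CTSA at 0.07 and 0.10. MUC15 was nearest to CPEB4 at 0.11, GLCCI1 at 0.13 and ZNFX1 at 0.14, and MUC16 to BAG1 at 0.14, GLCCI1 at 0.15 and KSR1 at 0.15. MUC20 was nearest to LAMA5, EEIG1 and RASSF7 at 0.10 each.

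The 3 members with the largest changes had no gene as close in log2 units, a distance that grows with the size of the changes. The median gene lay 1.46 from AGR2, 1.59 from MUC21 and 1.88 from TCN1. AGR2 was nearest to LXN at 0.27, ITGB6, an integrin subunit, at 0.29 and SLC4A11 at 0.31. MUC21 was nearest to MAOA, monoamine oxidase A, at 0.38, then LOX and ALOX15B at 0.40 and 0.43, and MAOA changed by 0.88, 1.42 and 2.76 with AP1510, TGF-alpha and heregulin. TCN1 was nearest to TNFRSF11B, osteoprotegerin, at 0.47, TLR1 at 0.49 and LIPK at 0.51. Among the members themselves the closest pair was MUC15 and MUC16, at 0.17, followed by MUC15 and ELF3 at 0.20.

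Genes next to the members on the chromosomes were taken from the order in GRCh38.p14. Of the measured ones that are not members, THBS3, TRIM46, TSPAN13 and MUCL3 passed with a treatment against untreated. ANO3, SLC5A12, MBD3L1, OR1M1, APOD, RNPEP and GPR37L1 passed with none (adjusted p from 0.11 to 0.97), nor did AGR3 and CBLIF. With TGF-alpha 12.5% of all genes rose and 13.4% fell, and with heregulin 3.45% and 5.06%. Whether neighbours moved with the members was not tested. Of the neighbours of MUC1, THBS3, which encodes a thrombospondin, fell with TGF-alpha (log2 change -0.56, adjusted p = 0.0012), where MUC1 changed by -0.59, and changed by 0.00 with heregulin (adjusted p = 0.99). TRIM46, on the other side of MUC1, rose with heregulin (log2 change 0.42, adjusted p = 0.0056), where MUC1 changed by 0.44, and changed by -0.01 with TGF-alpha (adjusted p = 0.98). AGR3, the paralogue beside AGR2, changed by 0.01, 0.00 and -0.01 with AP1510, TGF-alpha and heregulin (adjusted p = 0.98, 1 and 0.98). TSPAN13, on the other side of AGR2, fell with heregulin (log2 change -0.42, adjusted p = 0.0085, and 0.051 without untreated replicate 3) and changed by -0.23 with TGF-alpha (adjusted p = 0.087). CBLIF, beside TCN1, changed by -0.20 with TGF-alpha and -0.13 with heregulin (adjusted p = 0.25 and 0.59). MUCL3, beside MUC21, rose with heregulin by 0.46 (adjusted p = 0.032), a call lost in 7 of 18 alternative fits. Its levels, 4.29 to 4.94, lay below every array median.

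A wider set of 108 genes around mucus and luminal secretion, in 8 lists, held 102 measured genes, of which a few stand in 2 lists. With AP1510, 0 of the 102 passed by limma, with 11 at an unadjusted p under 0.05. Of all genes 0.771% rose and 0.700% fell with AP1510, so 0 of 102 is near the share over all genes. With TGF-alpha 11 rose (10.8%, against 12.5% of all genes) and 24 fell (23.5%, against 13.4%). With heregulin 8 rose (7.84%, against 3.45% of all genes) and 10 fell (9.80%, against 5.06%). Their median log2 change was -0.03, -0.04 and 0.01, against -0.01, -0.01 and 0.01 over all genes. Per list, the median log2 changes with TGF-alpha and heregulin were -0.04 and 0.04 for other mucins, -0.04 and -0.01 for mucin O-glycosylation, -0.02 and 0.00 for mucous cell genes, -0.01 and 0.06 for secreted luminal products. They were 0.00 and -0.11 for luminal mammary markers, -0.43 and 0.09 for epithelial ETS relatives of ELF3, -0.07 and -0.13 for cobalamin handling, -0.46 and 0.01 for mucin partners and sheddases. The 0 with AP1510 was not firm for the luminal markers: 1 of them fell without heregulin replicate 2, without heregulin replicate 3, with the 2 groups fitted alone and with trend and robust settings in limma, and 1 rose with the last of these.

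**Figure D4:**
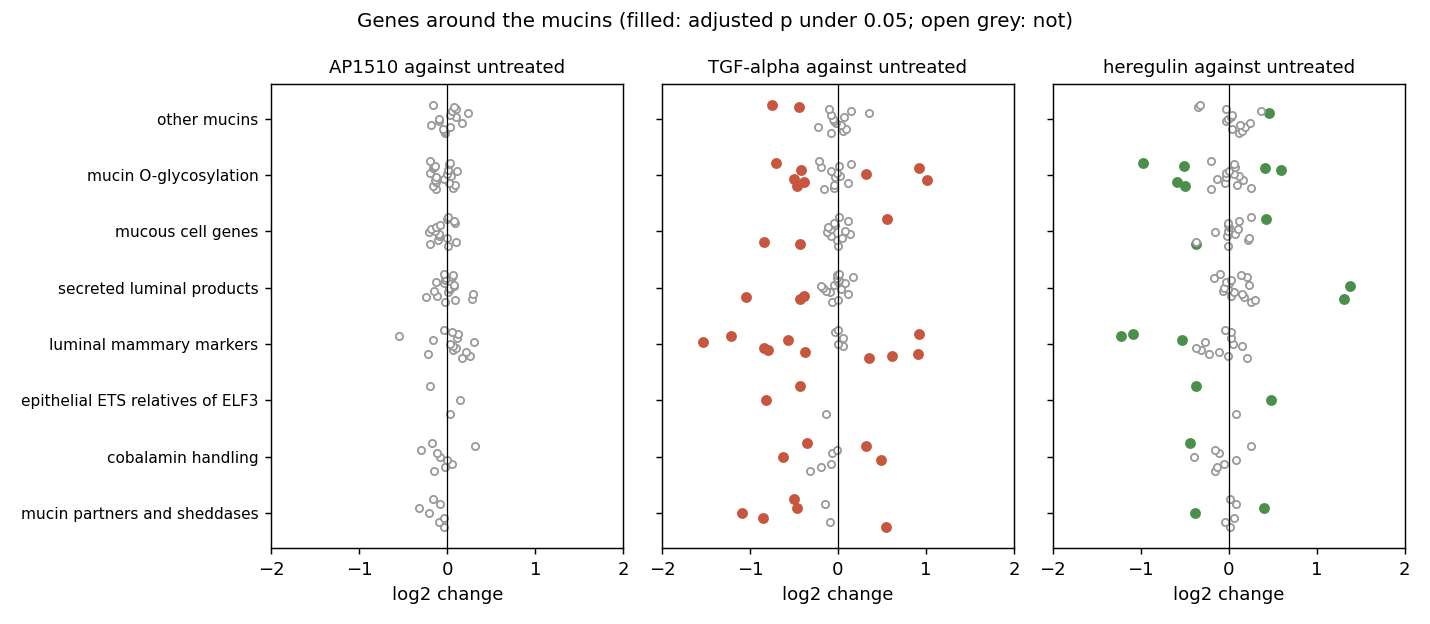
Log2 change against untreated (horizontal axis) of each measured gene of the 8 lists (rows), in a panel per treatment, with filled points for an adjusted p under 0.05 and open grey points for the rest. With AP1510 0 of 102 genes have a filled point (0.771% of all genes rose and 0.700% fell). With TGF-alpha the luminal markers spread to both sides.

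Among 15 measured mucins outside the 9 genes, 0 passed upward and 2 downward under TGF-alpha, and under heregulin 1 passed upward and 0 downward. The shares of this list were 0% and 13.3% under TGF-alpha (all genes 12.5% and 13.4%), then 6.67% and 0% under heregulin (all genes 3.45% and 5.06%). At an unadjusted p under 0.05, limma gave 1 higher mucin with TGF-alpha and 2 lower with heregulin. The 0 risen became 1 in 5 alternatives, and the 0 fallen with heregulin became 1 or 2 in 5 alternatives. Those that fell were MCAM, an adhesion molecule also listed as a mucin, by 1.68-fold (adjusted p = 3.1e-05), and CD164, a sialomucin, by 1.36-fold (adjusted p = 0.011), and CD164 missed the threshold without untreated replicate 1 (adjusted p = 0.06) or TGF-alpha replicate 1 (adjusted p = 0.062). MUCL3 rose 1.38-fold with heregulin, a call lost in 7 of 18 alternative fits, at levels below every array median.

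Of 20 measured genes of mucin O-glycosylation, 3 passed upward and 5 downward under TGF-alpha, and under heregulin 2 passed upward and 4 downward. As shares of the list these were 15% and 25% under TGF-alpha (all genes 12.5% and 13.4%), then 10% and 20% under heregulin (all genes 3.45% and 5.06%). GALNT10, which starts O-glycan chains, rose 2.02-fold with TGF-alpha (adjusted p = 6.3e-06). B3GNT3, which extends them, rose 1.89-fold under TGF-alpha (adjusted p = 1.1e-06), while its heregulin change was a rise of 1.34-fold (adjusted p = 0.0076). The sialyltransferase gene ST6GALNAC2 fell 1.62-fold under TGF-alpha (adjusted p = 6.5e-05), while its heregulin change was a fall of 1.96-fold (adjusted p = 1.2e-05). GALNT11 fell 1.42-fold with TGF-alpha (adjusted p = 5e-04). GALNT7 fell 1.503-fold with heregulin (adjusted p = 0.0019) and also 1.30-fold with TGF-alpha (adjusted p = 0.013), where it no longer passed without untreated replicate 3 (adjusted p = 0.057) or TGF-alpha replicate 1 (adjusted p = 0.055). GCNT3, a branching enzyme of mucin-type chains, rose 1.51-fold with heregulin (adjusted p = 0.01), which no longer passed with untreated replicate 1 left out (adjusted p = 0.059). It fell 1.34-fold with TGF-alpha (adjusted p = 0.03), a call lost without untreated replicate 2 or 3 (adjusted p = 0.1 each), without TGF-alpha replicate 3 (adjusted p = 0.18) and with all probe sets tested (adjusted p = 0.074). Heregulin against TGF-alpha differed by 2.03-fold (adjusted p = 3.4e-05).

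Of 16 genes of mucous cells, 1 passed upward and 2 downward under TGF-alpha, and under heregulin 1 passed upward and 1 downward. The shares of this list were 6.25% and 12.5% under TGF-alpha (all genes 12.5% and 13.4%), then 6.25% and 6.25% under heregulin (all genes 3.45% and 5.06%). XBP1, a transcription factor of the secretory apparatus, rose 1.47-fold under TGF-alpha (adjusted p = 0.00017), while its heregulin change was a rise of 1.35-fold (adjusted p = 0.0057). FOXA1, a luminal pioneer factor, fell 1.79-fold with TGF-alpha (adjusted p = 0.00019). SPDEF, the goblet cell ETS factor, fell 1.34-fold under TGF-alpha (adjusted p = 0.0021), while its heregulin change was a fall of 1.30-fold (adjusted p = 0.017), and the heregulin call ended in 4 of the 12 fits without 1 array (adjusted p up to 0.087, without untreated replicate 1). Of the 3 epithelial ETS relatives of ELF3, EHF fell 1.76-fold under TGF-alpha (adjusted p = 3.5e-05), while its heregulin change was a rise of 1.39-fold (adjusted p = 0.012), which did not pass when untreated replicate 2 (adjusted p = 0.064) or heregulin replicate 3 (adjusted p = 0.058) was left out. ELF5 did not pass in either.

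Of 19 secreted luminal products, 0 passed upward and 3 downward under TGF-alpha, and under heregulin 2 passed upward and 0 downward. As shares of the list these were 0% and 15.8% under TGF-alpha (all genes 12.5% and 13.4%), then 10.5% and 0% under heregulin (all genes 3.45% and 5.06%). The zeros were also 0 at an unadjusted p under 0.05 by limma. SLPI, a secreted protease inhibitor, fell 2.06-fold with TGF-alpha (adjusted p = 1.3e-07). LCN2, the siderophore-binding lipocalin, fell 1.35-fold under TGF-alpha (adjusted p = 0.0023), while its heregulin change was a rise of 2.47-fold (adjusted p = 2.6e-07). WFDC2, which encodes the secreted protein HE4, rose 2.60-fold with heregulin (adjusted p = 2.4e-08). LCN2 averaged 8.63 ± 0.11 with heregulin against 6.89 ± 0.04 with TGF-alpha (SD, n = 3 arrays each), a difference of 3.34-fold (adjusted p = 2.3e-09).

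Of 15 measured luminal mammary markers, 4 passed upward and 6 downward under TGF-alpha, and under heregulin 0 passed upward and 3 downward. The shares of this list were 26.7% and 40% under TGF-alpha (all genes 12.5% and 13.4%), then 0% and 20% under heregulin (all genes 3.45% and 5.06%). At an unadjusted p under 0.05, limma gave 1 higher with heregulin. CD24, a glycoprotein of luminal cells, fell 2.90-fold (adjusted p = 1.5e-07) and CLDN4, a tight junction claudin, 2.32-fold (adjusted p = 1.1e-05) with TGF-alpha. KRT18, a luminal keratin, rose 1.88-fold with TGF-alpha (adjusted p = 6.2e-07). EPCAM, an epithelial adhesion molecule, rose 1.89-fold under TGF-alpha (adjusted p = 0.0027), while its heregulin change was a fall of 2.13-fold (adjusted p = 0.0025), and CLDN4 fell 2.34-fold with heregulin (adjusted p = 4.8e-05).

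Of 9 measured genes of vitamin B12 handling other than TCN1, 2 passed upward and 2 downward under TGF-alpha, and under heregulin 0 passed upward and 1 downward. As shares of the list these were 22.2% and 22.2% under TGF-alpha (all genes 12.5% and 13.4%), then 0% and 11.1% under heregulin (all genes 3.45% and 5.06%). At an unadjusted p under 0.05, 1 was higher with heregulin by limma. CD320, the receptor for the B12 carrier of blood, rose 1.40-fold (adjusted p = 0.0021), and LMBRD1, a lysosomal B12 exporter subunit, fell 1.55-fold (adjusted p = 0.0012) with TGF-alpha. MTR, methionine synthase, rose 1.25-fold and MMUT, methylmalonyl-CoA mutase, fell 1.27-fold with TGF-alpha, and both missed the threshold in fits without 1 array (adjusted p up to 0.094 without TGF-alpha replicate 2 and up to 0.07 without untreated replicate 1). MMUT fell 1.36-fold with heregulin (adjusted p = 0.0096), and without untreated replicate 1 the call ended (adjusted p = 0.054).

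Of 7 binding partners and sheddases of mucins, 1 passed upward and 4 downward under TGF-alpha, and under heregulin 1 passed upward and 1 downward. Over all genes 12.5% rose and 13.4% fell with TGF-alpha, against 3.45% and 5.06% with heregulin. The member that rose with TGF-alpha was ERBB2, whose probe set may read the chimera as well as the cells' own gene, which was not tested. LGALS3, a galectin that binds mucin glycans, fell 2.12-fold under TGF-alpha (adjusted p = 1.1e-07), while its heregulin change was a fall of 1.30-fold (adjusted p = 0.011), and that heregulin call ended with untreated replicate 3 left out (adjusted p = 0.061). MSLN, mesothelin, which binds MUC16, fell 1.81-fold with TGF-alpha (adjusted p = 5.3e-07). ICAM1, an adhesion ligand of MUC1, fell 1.38-fold with TGF-alpha (adjusted p = 0.0052), a call kept in all 19 alternatives. Its TGF-alpha values, 4.99 to 5.23, lay below every array median, in a range where RMA values carry no detection call. ICAM1 rose 1.32-fold with heregulin (adjusted p = 0.036), yet it lost this call in 6 of 19 alternative fits, with the highest adjusted p, 0.13, without heregulin replicate 2.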

How the data were processed

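Transcript levels were measured in 12 dishes of HER2-FKBP-HA MCF10A cells, 3 per group. The deposited values are log2 intensities per probe set that the authors made with RMA, per the submitters' processing notes, which give no version. RMA equalises the arrays' distributions, so a change is relative to the rest of the array. The depth of an array is not a count, and the number of arrays limits the precision. Of 33297 probe sets, 19460 named 1 gene, 1754 several and 12083 none. Symbols were updated through Entrez IDs with RefSeq's table for GRCh38.p14, which held 19429. Each of 18417 genes was read from 1 probe set, the brightest on average.

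All 12 arrays entered 1 limma 3.58.1 fit (R 4.3.3) with a mean per group, 8 residual and 7.55 prior degrees of freedom. The 6 contrasts were tested two-sided with Benjamini-Hochberg adjustment over all genes at 0.05, and a moderated F test joined the 3 treatments' contrasts. No filter was applied. The procedure was tested on simulated data with independent noise, no outlying array and 200 genes changed in the AP1510 group alone. Of 1.5-fold changes 88.5% were recovered with 14 false calls, and of 2-fold changes 100% with 9.

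The members, lists and motifs were chosen with earlier results of these data known. Genes named besides the members were the 2 largest rises and 2 largest falls that passed per list and contrast against untreated, the 3 nearest genes per member, the cell type markers and ERBB2; chromosomal neighbours, ELF5 and the TGF-alpha changes of GCNT3, GALNT7 and ICAM1 were added after their values were seen. Alternatives were leaving out each array, fitting 2 groups alone, eBayes with trend and robust settings, renewed quantile normalization, median centring, dropping genes below 5 in all groups, averaging probe sets, and testing all probe sets.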

Additional observations from a re-analysis of the deposited data

How the results depend on the processing

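The 9 genes gave 54 tests in 6 contrasts and 1020 refits under up to 19 alternatives each. Of these refits 1009 kept the direction and side of the threshold where a call was made, 8 lost a call, 3 gained one and 0 reversed a call. All of the lost calls were MUC20's, in its 3 contrasts with TGF-alpha, and 29 of the 32 called changes held under every alternative run. MUC4 has no value with dim genes left out, a filter that removed 5759 genes. Without 1 array, the number of the 9 genes called ranged from 1 to 1 for AP1510, 7 to 8 for TGF-alpha and 5 to 5 for heregulin against untreated, from 6 to 7 for TGF-alpha against AP1510, 4 to 5 for heregulin against AP1510 and 6 to 8 for heregulin against TGF-alpha.

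Over all genes, 271 passed for AP1510 against untreated, 95 to 327 without 1 array, with 95 without AP1510 replicate 1. With all 33297 probe sets tested, 86 probe sets passed, which is not a count of genes. For heregulin against untreated 1566 passed, and 1039 to 1602 without 1 array, fewest without untreated replicate 3. For heregulin against AP1510 1331 passed, 818 to 1323 without 1 array, fewest without AP1510 replicate 2, and 743 with the 2 groups alone. These fits had fewer arrays or more probe sets, and the part of that or of any other cause in the counts was not tested. Among the list genes and neighbours named, 31 of 44 changes held under every alternative, and 37 of 835 refits lost a call. No paired analysis was possible because the labels give no replicate numbers that groups share. Low intensities such as those of MUC4 carry no detection call.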
